A study of Mus musculus with 8 samples.

Results

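Mast cells and basophils are the rare granulocytes of allergy and parasite defence, and both carry the high-affinity IgE receptor, of which Fcer1a and Ms4a2 encode the alpha and beta chains. Mast cells live in tissue, depend on the receptor Kit and fill their granules with histamine, heparin and proteases such as the chymases Mcpt4 and Cma1, the tryptases Tpsb2 and Tpsab1 and the carboxypeptidase Cpa3. Basophils circulate, enter inflamed tissue and carry the protease Mcpt8, the receptor Cd200r3 and, after activation, the cytokine Il4. In the wound data they were taken as the cells with at least 3 UMIs (unique molecular identifiers, 1 per captured transcript) of Cpa3, Ms4a2 and Mcpt8 together. This gate held 201 of 35158 cells, or 0.572%. Gated cells with at least 1 Mcpt8 UMI were called basophils (29 cells) and those with 0 Mcpt8 UMIs mast cells (172 cells). Mcpt8 was not listed at any barcode in the count tables of the control libraries of days 5 and 7, whereas it had 30 to 409 UMIs in the other 6 tables. Whether it had 0 UMIs there or was left out for another reason was not tested. In these 2 libraries no cell could be called a basophil, and a cell could pass the gate only by Cpa3 and Ms4a2.

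The cells were CD45+ cells sorted from skin wounds of male C57BL/6J mice, either made diabetic with 120 mg/kg streptozotocin (STZ) at 4 weeks of age and selected by blood glucose of at least 16.5 mmol/L, or labelled as control wound. Wounds were taken on days 1, 3, 5 and 7 after wounding. The wounds of 5 mice were mixed for each of the 8 libraries, so that each treatment and day was a single library and cells were not replicates. Between 3266 and 5436 cells were kept in a library, with a median of 2605 to 8468 UMIs per cell, and the 2 highest medians were those of the control libraries of days 5 and 7. Fewer cells of a type among those sorted and a poorer recovery of that type cannot be told apart in such shares.

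The values that chose the cells were Cpa3, Ms4a2 and Mcpt8, and they are given here as a description. The gated cells were not uniform in genes that the gate did not use. They were split, after their values had been seen, into 4 profiles. The profiles were assigned in order. First, 4 cells had at least 10 UMIs each of Kit and Mcpt8. Of the rest, 95 were protease-rich: Mcpt4, Cma1, Tpsb2 and Tpsab1 made up at least 1% of their UMIs. Of those still left, 30 had at least 2 UMIs of Gata2 or Cd200r3, the first a transcription factor of both lineages. The last 72 cells had neither pattern. Of the 172 cells called mast cells, 91 were protease-rich, 10 had the Gata2 or Cd200r3 profile and 71 had neither. Of the 29 cells called basophils, 20 had the Gata2 or Cd200r3 profile, 4 were protease-rich, 4 had Kit with Mcpt8 and 1 had neither. The label of mast cells went against the marker genes in the 71 cells with neither pattern. It also did so in the 10 with the Gata2 or Cd200r3 profile, in which Kit was counted in 1, Mcpt4 in 2 and Tpsb2 in 2 cells. The 4 protease-rich cells called basophils had 90 to 409 Mcpt4 UMIs and 1 to 5 Mcpt8 UMIs. All are called here by their rule.

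**Figure D1:**
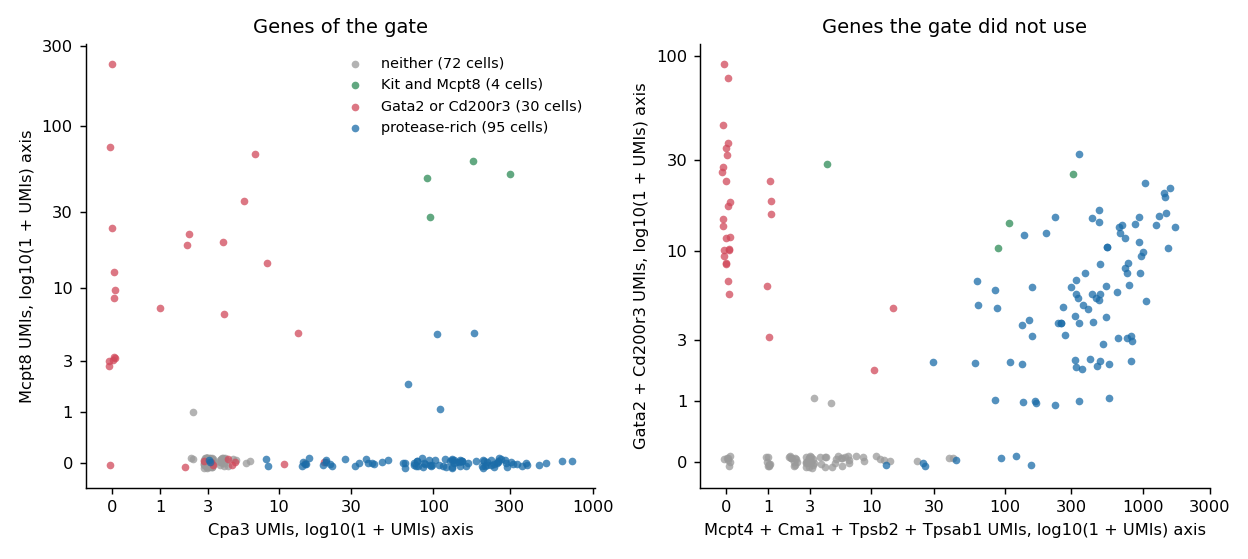
UMIs per cell of the 201 gated cells, each point 1 cell coloured by profile and jittered, on axes of log10(1 + UMIs). The left panel plots Cpa3 against Mcpt8 and the right panel the sum of Mcpt4, Cma1, Tpsb2 and Tpsab1 against the sum of Gata2 and Cd200r3. The 72 cells with neither pattern crowd at the edge of the gate. The right panel shows genes that defined the profiles, and Gata2 was also counted in 76 and Cd200r3 in 58 of the 95 protease-rich cells.

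Few protease-rich cells lay at the edge of the gate, and most of the cells with neither pattern did. Exactly 3 gate UMIs were counted in 61 cells, of which 53 had neither pattern, 6 had the Gata2 or Cd200r3 profile and 2 were protease-rich. Just outside, at 2 gate UMIs, lay 296 cells, of which 294 had neither pattern. With at least 10 gate UMIs there were 111 cells, of which 91 were protease-rich and 1 had neither pattern. Cpa3 was also counted outside the gate: the share of ungated cells with a Cpa3 UMI went from 1.96% in the diabetic library of day 5 to 19.6% in the control library of day 7. In cells with T cell markers, which should lack Cpa3, that share was 1.35% (median 4692 UMIs per cell) and 12.0% (median 3935 UMIs) in the same libraries. The 72 cells with neither pattern had a median of 15650.5 UMIs, against 5279 in the protease-rich cells, and 53 of them came from the control library of day 7. All 72 had a UMI of Lyz2, a macrophage and neutrophil gene, at 8994 CPM (UMIs of the gene per 1000000 UMIs of the summed cells), 55 had a UMI of the collagen gene Col1a1, at 6541 CPM, with a median of 4 UMIs and 4014 in 1 cell of the control library of day 7, and 48 had a UMI of Ctsk, the cathepsin of osteoclasts, at 1466 CPM.

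Other cell types were also looked for in the protease-rich cells and in the cells with Gata2 or Cd200r3. In the 30 cells with Gata2 or Cd200r3, Col1a1, Col1a2 and Col3a1 were at 0 UMIs, and Lyz2 was at 639 CPM. Of the 91 protease-rich cells called mast cells, 23 had a Col1a1 UMI (49 UMIs together) and 25 a Ctsk UMI (60 UMIs together). In the protease-rich cells Lyz2 was at 2244 CPM and Apoe, a lipoprotein gene of macrophages, at 3142 CPM. Both were highest on day 7 in these cells: Lyz2 stood at 3825 CPM in the diabetic and 4000 CPM in the control library of day 7, and between 422 and 1636 CPM in the other 6 libraries. Eosinophil and keratinocyte markers were at or near 0, with 0 UMIs of Epx and Krt5 over all gated cells.

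The sequences before the start of 3 genes that set the profiles apart are shown because they carry the gate genes themselves and the leading chymase. They run from 250 bases before to 50 bases after the start of the gene, from RefSeq on GRCm38.p6, all on the minus strand and written 5′ to 3′. Capitals mark the letters AGATAA or TGATAA, or their reverse complements, the core read by GATA factors. The windows are chr3:20242132-20242431 for Cpa3, chr14:56062261-56062560 for Mcpt4 and chr14:56085148-56085447 for Mcpt8.
Cpa3: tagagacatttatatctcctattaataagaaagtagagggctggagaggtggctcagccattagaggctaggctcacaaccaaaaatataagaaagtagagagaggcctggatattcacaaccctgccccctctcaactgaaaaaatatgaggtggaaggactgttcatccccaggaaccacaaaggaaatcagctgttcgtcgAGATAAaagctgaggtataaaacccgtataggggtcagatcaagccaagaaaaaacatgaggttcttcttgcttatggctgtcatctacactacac
Mcpt4: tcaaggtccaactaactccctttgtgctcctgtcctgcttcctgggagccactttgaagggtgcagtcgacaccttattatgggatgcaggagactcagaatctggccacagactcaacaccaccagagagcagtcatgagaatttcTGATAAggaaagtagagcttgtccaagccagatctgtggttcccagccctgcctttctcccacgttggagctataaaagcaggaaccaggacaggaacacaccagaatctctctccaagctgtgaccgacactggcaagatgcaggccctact
Mcpt8: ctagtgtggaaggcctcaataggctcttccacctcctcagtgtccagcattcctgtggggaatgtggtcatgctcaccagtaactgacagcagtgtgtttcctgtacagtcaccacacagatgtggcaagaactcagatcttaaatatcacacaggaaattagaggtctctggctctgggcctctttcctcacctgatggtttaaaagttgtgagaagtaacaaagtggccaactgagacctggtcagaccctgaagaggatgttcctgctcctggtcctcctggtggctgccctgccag
The motif was found once for Cpa3, with its first base 46 bases before the start, once for Mcpt4, 103 bases before the start, and not in the window of Mcpt8. Of 8 mast cell and basophil genes picked by hand (Cpa3, Mcpt4, Mcpt8, Cma1, Fcer1a, Ms4a2, Prss34 and Gzmb), 5 held it. A gene counted if any of its promoters held the motif. Over single promoters of the same length, 18.6% of 32851 held it. The units are unlike, and enrichment was not tested. A match is a run of letters and was not tested for binding.

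Mcpt8 (chr14:56082166-56085273), Mcpt4 (chr14:56059629-56062313), Cma1 (chr14:55941451-55944675) and Gzmb (chr14:56258838-56262260) share a cluster of serine protease genes on chromosome 14 of GRCm38 in the GENCODE annotation, whose starts of Mcpt8 and Mcpt4 differ from those of RefSeq used for the windows above, and Tpsb2 (chr17:25366305-25369098) and Tpsab1 (chr17:25343245-25345562) lie together on chromosome 17. Some transcripts of these families are alike. The longest annotated transcripts of Mcpt4 and Mcpt9 were 85.3% identical where aligned, with a longest shared run of 56 bases. Those of Mcpt4 and Mcpt1 were 86.6% identical with a run of 46 bases, and those of Tpsb2 and Tpsab1 76.7% with a run of 23 bases. Values were 73.1% and 27 bases for Mcpt4 and Cma1, 72.3% and 11 bases for Mcpt4 and Mcpt8, and 72.4% and 15 bases for Mcpt8 and Gzmb. How reads matching several copies were counted was not tested here, so that low values of one family member beside a high one are uncertain. Mcpt9 had 2 UMIs and Mcpt1 had 0 UMIs over all gated cells beside 20735 UMIs of Mcpt4. UMIs mark 3′ ends of transcripts, so that levels of different genes are given in CPM without scaling by length.

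The protease-rich cells carried the granule set of connective tissue mast cells. Over their UMIs, Mcpt4 was at 36074 CPM, Cpa3 at 25186 CPM, Tpsb2 at 23071 CPM and Cma1 at 21738 CPM. Each of Mcpt4, Cpa3 and Cma1 was counted in all 95 cells, and Tpsb2 in 94. Tpsab1 was lower at 3496 CPM and was counted in 80 cells. These 4 chymase and tryptase genes chose the profile, and their share of the UMIs went from 1.55% to 19.95% of a cell.

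Genes for the amines and the sulphated sugars of the granule differed in how they were shared between the profiles. In the protease-rich cells Hdc, the enzyme that makes histamine, was at 7580 CPM, the vesicular amine transporter Slc18a2 at 575 CPM, the serotonin enzyme Tph1 at 575 CPM, the amine oxidase Maob at 535 CPM and the heparan sulphotransferase Hs6st2 at 515 CPM. In the 30 cells with Gata2 or Cd200r3, Hdc was at 9696 CPM and Slc18a2 at 387 CPM, whereas Tph1 and Maob each had a single UMI (8 CPM) and Hs6st2 was at 17 CPM. Both profiles thus held the histamine enzyme, whereas protease-rich cells held 328 of the 430 Tph1 UMIs of all cells kept. The serotonin transporter Slc6a4 had 478 of 701 UMIs in protease-rich cells and 7 in cells with Gata2 or Cd200r3.

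Surface receptors differed between the profiles. Kit, the receptor of stem cell factor, was at 1441 CPM in the protease-rich cells and was counted in 86 of 95. In the cells with Gata2 or Cd200r3 it was counted in 1 of 30. Mrgprb2, the mouse receptor for basic secretagogues, was at 570 CPM in the protease-rich cells, with 0 UMIs in the 30 other cells, and its relative Mrgprb1 was at 3198 CPM against 76 CPM. The IL-33 receptor Il1rl1 was at 2606 CPM against 757 CPM. Fcer1a was at 2485 CPM against 412 CPM and Ms4a2 at 563 CPM against 185 CPM, although Fcer1g, the shared gamma chain, was at 2707 CPM and 2313 CPM. In the opposite direction, both chains of the IL-18 receptor were higher in the cells with Gata2 or Cd200r3: Il18rap was at 463 CPM against 16 CPM and Il18r1 at 311 CPM against 16 CPM. Csf2rb, the common beta chain of the receptors of IL-3, IL-5 and GM-CSF, was at 4003 CPM against 1599 CPM.

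The 30 cells with Gata2 or Cd200r3 were rich in cytokine and chemokine transcripts. Ccl3 was at 17223 CPM and Ccl4 at 14263 CPM, and both were counted in all 30 cells, against 796 CPM and 707 CPM in the protease-rich cells. Il6 was at 8410 CPM against 107 CPM, and was counted in 27 of 30 cells against 28 of 95. Per cell, the Il6 UMIs of the 30 cells went up to 110. Il1b was at 4592 CPM, Ccl6 at 8309 CPM, Ccl9 at 4188 CPM, the macrophage growth factor Csf1 at 2515 CPM and oncostatin M (Osm) at 1640 CPM. Ccl7 and Ccl2, chemokines for monocytes, were the exceptions among the chemokines and were higher in the protease-rich cells, at 2257 CPM against 143 CPM and 1045 CPM against 143 CPM. Alox15, a lipoxygenase, had 45 UMIs in the 30 cells and 0 in the protease-rich cells, in which 3 counts would have been 5 CPM.

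Il4 was found in 12 of 30 cells with Gata2 or Cd200r3, at 530 CPM, and in 22 of 95 protease-rich cells, at 95 CPM. Il13 was found in 14 of 30 and 18 of 95 cells, at 538 CPM and 84 CPM, but a single cell of the control library of day 3, with 44 UMIs, held most of the 64 Il13 UMIs of the Gata2 or Cd200r3 profile. Mcpt8 itself was at 4709 CPM in the Gata2 or Cd200r3 profile and ranged from 3 to 220 UMIs in the 20 of these cells called basophils. Prss34, another basophil protease, was found in 6 of the 30 cells. It was also found in 3 protease-rich cells, of which 1, from the control library of day 3, had 61 UMIs.

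**Figure D2:**
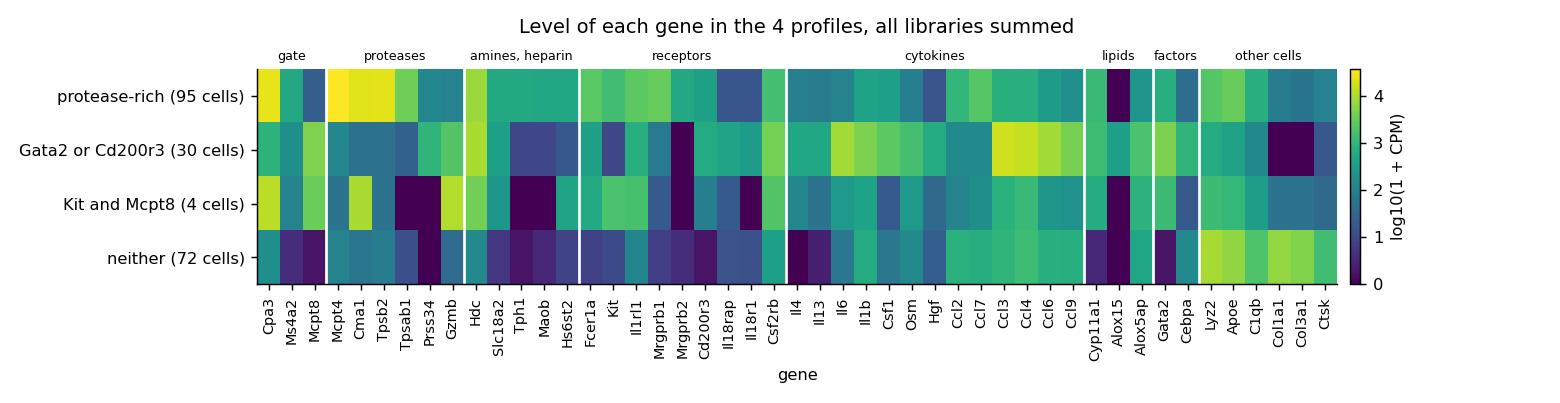
Level of selected genes in each profile, the UMIs of all libraries summed, coloured by log10(1 + CPM). Mcpt4, Tpsb2, Kit and Mrgprb2 are bright in the top row, Il6, Ccl3 and Ccl4 in the second, and Lyz2 and Col1a1 in the row of the 72 cells with neither pattern.

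The 4 cells with Kit and Mcpt8 came from diabetic libraries, 1 on day 3, 1 on day 5 and 2 on day 7. No cell of the control libraries of days 5 and 7 could have this profile, since Mcpt8 was not listed there, so that the treatments are not compared. They had 23 to 29 Kit UMIs and 28 to 62 Mcpt8 UMIs each, with 96 to 299 Cpa3 UMIs. The tryptase Tpsb2 was counted in 1 of them, with 3 UMIs, and Mcpt4 had 0 to 2 UMIs. Cma1 had 326, 4, 104 and 80 UMIs, and Gzmb, the granzyme of cytotoxic cells, 220, 11, 73 and 294 UMIs. Genes of dividing cells were counted in the cell of day 3 (Mki67, 10 UMIs; Pclaf, 16 UMIs) and in 1 of the cells of day 7 (Mki67, 13 UMIs; Pclaf, 17 UMIs), with 0 or 1 Mki67 UMIs in the others. The cell of day 3 also held 170 of the 172 Mcpt2 UMIs of all gated cells, a chymase of mucosal mast cells. Their total UMIs, 7984 to 18081, lay above the median of the protease-rich cells, and 0 of the 4 were called doublets. The caller marked only 0.193% of all cells, however, and whether it found the doublets was not tested.

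Mast cells and basophils as called by Mcpt8 were compared in the 2 libraries with at least 5 of both, the diabetic library of day 1 (17 and 5 cells) and the control library of day 3 (13 and 10 cells). Since Mcpt8 told the classes apart, this is a description without a test. Of 2562 genes with at least 100 UMIs over gated cells, 41 (1.6%) were at least 2-fold higher in mast cells in both libraries and 184 (7.18%) at least 2-fold higher in basophils. At gates of 5 and 10 UMIs only the control library of day 3 remained. There 254 of 1360 and 238 of 1194 genes were higher in mast cells, and 239 and 212 in basophils, so that the balance turned. With basophils called from at least 3 Mcpt8 UMIs, also in that library alone, it did not turn, with 371 of 3010 genes higher in mast cells and 510 in basophils. Threshold and libraries changed together in each setting. The diabetic basophils of day 1 included 2 protease-rich cells and the control mast cells of day 3 included 5 with Gata2 or Cd200r3, so that the ratios mix the profiles. The mast cells of each library also included 2 cells with neither pattern, which in the control library of day 3 held 32573 of the 89882 mast cell UMIs, with 115 of 220 Fos UMIs and 59 of 215 Ccl7 UMIs.

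Among the 15 genes with the largest smaller ratio toward mast cells were the proteases Cma1 and Tpsab1, Fcer1a and Ccl7. Cma1 was at 15579 CPM in mast cells and 5661 CPM in basophils of the diabetic library, and at 15876 CPM and 24.4 CPM in the control library. Fcer1a was at 1886 CPM and 689 CPM, and at 1969 CPM and 390 CPM. Ccl7 was at 2402 CPM and 492 CPM in the diabetic library, and at 2392 CPM against 0 UMIs in the control library. The immediate early gene Fos, the heat shock gene Dnajb1 and the cytokine inhibitor Socs2 were also among them. Fos was at 718 CPM in mast cells and 197 CPM (4 UMIs) in basophils of the diabetic library, and at 2448 CPM and 146 CPM (6 UMIs) in the control library. Counts under 3 UMIs were raised to 3 for the ratios that ranked these genes and those toward basophils.

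Toward basophils, the 15 genes included the chemokines Ccl3, Ccl4, Ccl6 and Ccl9. Ccl3 was at 15458 CPM in basophils and 1493 CPM in mast cells of the diabetic library, and at 19128 CPM and 2982 CPM in the control library. Ccl6 was at 3643 CPM and 640 CPM, and at 11345 CPM and 968 CPM. Acod1, which makes itaconate, was at 7040 CPM and 909 CPM, and at 4221 CPM and 790 CPM. The kinase Tec was at 738 CPM against 56.1 CPM (15 and 5 UMIs) and at 390 CPM against 33.4 CPM (16 and 3 UMIs). The nuclear receptor Nr4a3 was at 2560 CPM against 247 CPM and at 1854 CPM against 234 CPM. Also named by the rule were Hist1h1c, Zfp608, Ets1, Fn1, Adora2b, Ifitm1, Orai1 and Pnpla2.

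Mast cells made up 0.357% (95% interval 0.208 to 0.572) of the cells kept in the diabetic library of day 1, 0.497% (0.328 to 0.722) on day 3, 0.0717% (0.0148 to 0.209) on day 5 and 0.466% (0.272 to 0.745) on day 7. In the control libraries the shares were 0.227% (0.109 to 0.416), 0.271% (0.144 to 0.462), 0.429% (0.235 to 0.718) and 1.53% (1.19 to 1.92). These are exact Clopper-Pearson intervals and cover counting error only. Diabetic libraries were higher on days 1 and 3 and lower on days 5 and 7. The mean of the within-day differences was -0.265 percentage points (SD 0.588, n = 4 days) and did not pass an exact permutation test (two-sided p = 0.5, smallest possible p 0.125), which could not have reached 0.05. With libraries exchanged over all 8, which could have, p was 0.629 (exact permutation test, two-sided). At gates of 5 and 10 UMIs the difference was -0.0292 and -0.0106 points, and -0.00645 with cells thinned to 1000 UMIs. Cells that would count as basophils by Mcpt8 fall to the mast cells in the control libraries of days 5 and 7 where they pass the gate.

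The value of the control library of day 7 rested on the 53 cells with neither pattern. Its protease-rich cells were 18 of 4653, or 0.387% (0.229 to 0.611). Protease-rich cells in the other libraries were 0.315%, 0.423%, 0.0717% and 0.247% in the diabetic wounds of days 1, 3, 5 and 7, and 0.227%, 0.125% and 0.337% in the control wounds of days 1, 3 and 5. The lowest was the diabetic library of day 5, with 3 cells and an interval of 0.0148 to 0.209. The intervals were 0.268 to 0.634 in the diabetic library of day 3 and 0.229 to 0.611 in the control library of day 7. They cover counting error only, and the lowest library was picked after the values were seen.

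Basophils were 0.105% (0.0341 to 0.245), 0.0184% (0.000466 to 0.102), 0.143% (0.0527 to 0.312) and 0.0823% (0.0170 to 0.240) of the cells kept in the diabetic libraries of days 1, 3, 5 and 7. In the control libraries they were 0.0907% (0.0247 to 0.232) on day 1 and 0.208% (0.0998 to 0.382) on day 3. On days 5 and 7 no basophil share can be given for control wounds, because Mcpt8 was not listed in those tables. On days 1 and 3, where both treatments listed it, the diabetic share was the higher on day 1 and the lower on day 3, with overlapping intervals on both days. The Gata2 or Cd200r3 profile held 5, 0, 5 and 0 cells in the diabetic libraries of days 1, 3, 5 and 7 and 4, 15, 1 and 0 in the control libraries. On day 3 both tables list Mcpt8. The profile's share there was 0% (exact 95% interval 0 to 0.0678) in the diabetic and 0.312% (0.175 to 0.514) in the control library. These intervals cover counting error only. With 1 library on each side, treatment and library cannot be told apart. Only 16 of these 30 cells would have passed the gate by Cpa3 and Ms4a2 alone, so that the 2 control libraries without Mcpt8 cannot be compared in this profile either. No test of basophil shares between treatments or between early and late wounds is given, since it would rest on those libraries.

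Late and early wounds did not separate in mast cells. Mast cells averaged 0.623% on days 5 and 7 and 0.338% on days 1 and 3 (4 libraries each; exact permutation test, two-sided p = 0.611, smallest possible p 0.0556), and the direction turned without the control library of day 7 (-0.0156 percentage points). At gates of 5 and 10 UMIs the difference fell from 0.285 to 0.0136 and 0.00305 points.

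**Figure D3:**
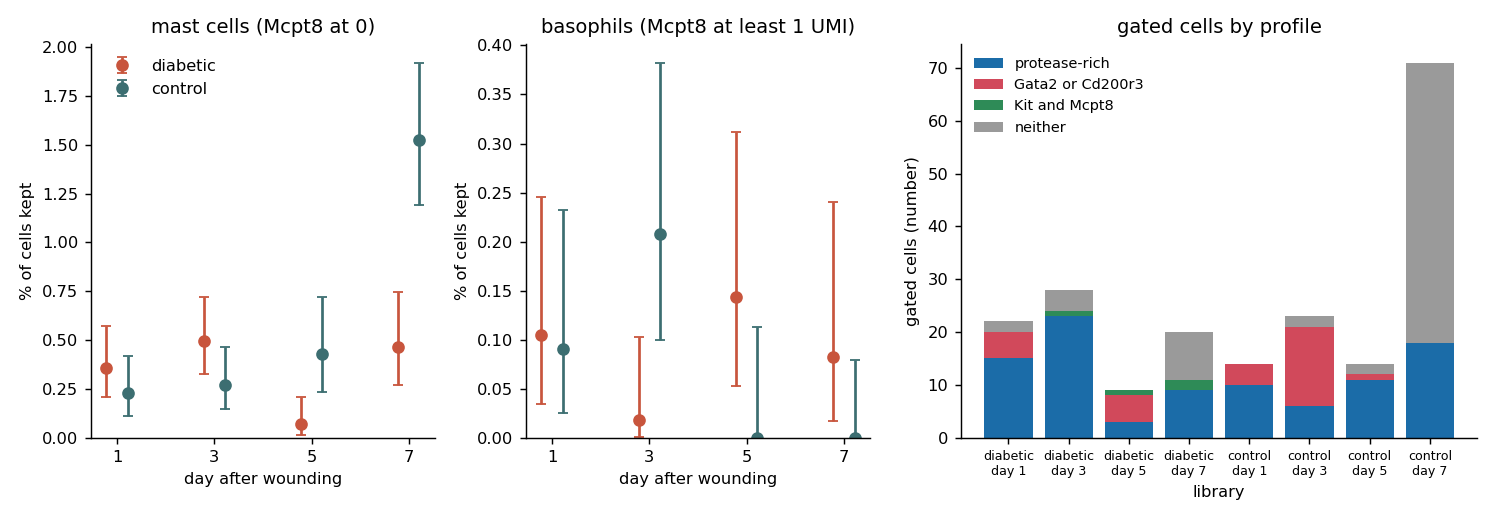
Share of mast cells (left) and basophils (middle) among the cells kept in each library, in percent by day after wounding, with exact 95% binomial intervals for counting error, and the number of gated cells in each library by profile (right). The control library of day 7 stands at 1.53% mast cells, and 53 of its 71 gated cells have neither pattern. The basophil values of 0 in the control libraries of days 5 and 7 reflect that Mcpt8 is not listed in those tables.

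Gated cells held 56.1% (49.3 to 62.8) of the 221 Il4 UMIs of all cells kept and 31.7% (27.0 to 36.7) of the 369 Il13 UMIs, while being 0.572% of the cells. At a gate of 5 UMIs the shares were 39.8% for Il4 and 17.6% for Il13, and 1 cell of the control library of day 3 held 44 of the 117 gated Il13 UMIs. By library, the share of Il4 was 81.2%, 53.8%, 18.2% and 19.4% in the diabetic wounds of days 1, 3, 5 and 7 and 81.8%, 83.6%, 25.0% and 50.9% in the control wounds. The counts were low: the control library of day 3 had 46 of 55 Il4 UMIs in gated cells, and the diabetic library of day 5 had 2 of 11. The share was above 50% on days 1 and 3 in both treatments and in the control library of day 7. In the control libraries of days 5 and 7, where Mcpt8 is not listed, the gate rested on Cpa3 and Ms4a2 alone, by which 16 of the 30 cells with the Gata2 or Cd200r3 profile passed, so that the shares of Il4 and Il6 there are not comparable with those of the other libraries.

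Of all 7267 Il6 UMIs, 1000 (13.8%, interval 13.0 to 14.6) lay in the 30 cells with Gata2 or Cd200r3 and 61 (0.839%) in the 95 protease-rich cells. The 15 such cells of the control library of day 3 held 421 of its 1050 Il6 UMIs, or 40.1%, and the 5 of the diabetic library of day 5 held 186 of 519, or 35.8%. On day 1 these cells held 11.4% in the diabetic and 16.4% in the control library. By contrast, gated cells held 3.55% of the Hdc UMIs, 0.574% of the Ccl3 UMIs and 0.332% of the Tnf UMIs, so that most transcripts of the histamine enzyme lay in other cells. Their share of Hdc was highest in the control library of day 5, at 12.1%, and lowest in the control library of day 1, at 1.08%. Of receptor genes that the gate did not use, gated cells held 83.8% of the Mrgprb1 and 82.5% of the Mrgprb2 UMIs.

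**Figure D4:**
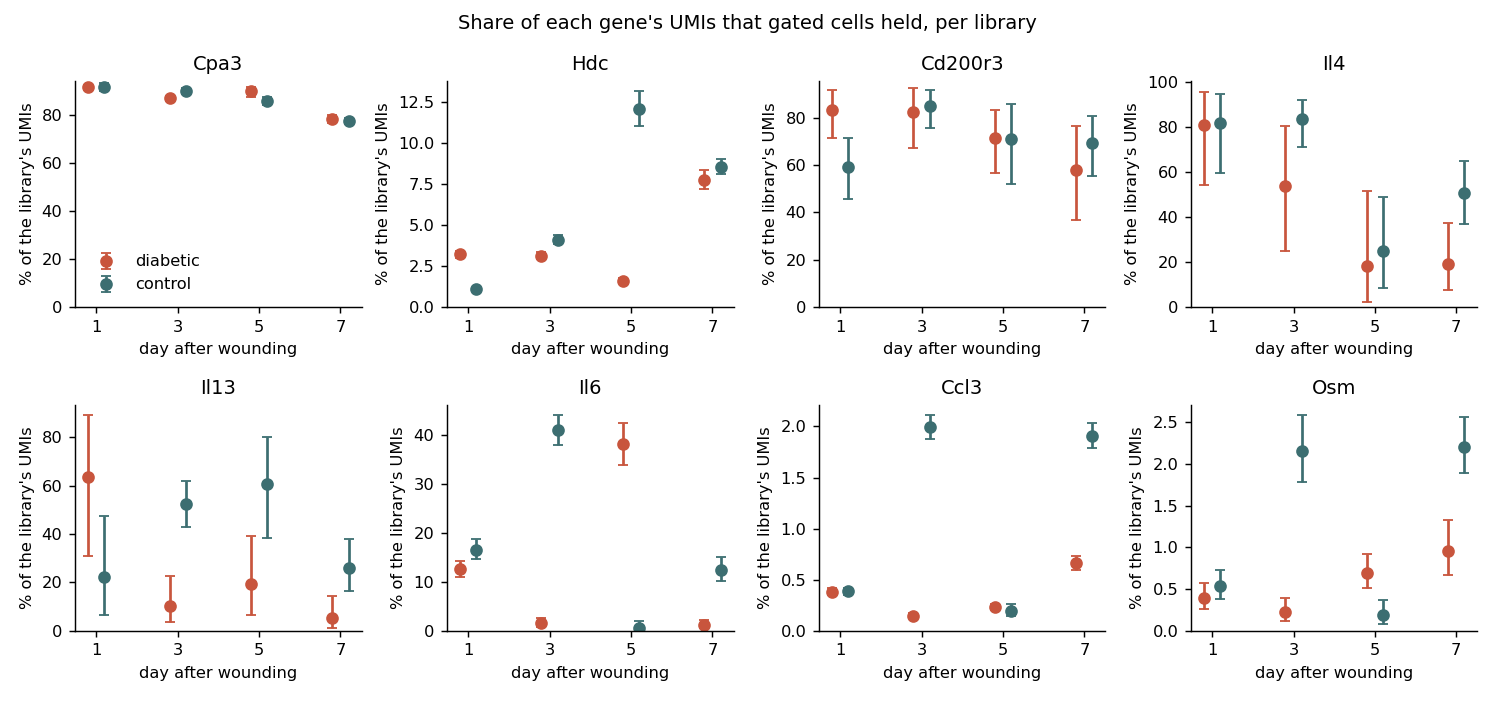
Share, in percent, of all UMIs of a gene in a library's kept cells that lay in gated cells, by day and treatment, for 8 genes, with exact 95% binomial intervals for counting error. Cpa3, a gate gene, lies between 77.4% and 91.7% in every library, Il4 is above 50% on days 1 and 3 and in the control library of day 7, and Il6 is highest in the control library of day 3 and the diabetic library of day 5.

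For the effect of diabetes on mast cells, the UMIs of a library's mast cells were added up, where it had 5 or more, and tested with edgeR's quasi-likelihood test with the day as a factor. The diabetic library of day 5, with 3 mast cells, was left out, so that 7 sums remained. These sums, also used for late against early wounds, mix the profiles. On day 7, protease-rich cells held 168735 of the 1250127 mast cell UMIs of the control and 75811 of the 211905 of the diabetic library. The 53 cells with neither pattern held 1081392 in the control library of day 7. The fits thus describe cells called by the rule. Of 3268 genes, 1 (0.0306%) passed an adjusted p of 0.05 and 101 had an unadjusted p under 0.05. DESeq2 called 5. Without the control library of day 7, edgeR called 46 genes, 7 higher and 39 lower in diabetic wounds, from 1 residual degree of freedom. The gene that passed over all 7 sums was Hspb1, which encodes the small heat shock protein HSP27, at a log2 fold change of -5.85 (SE 0.81, adjusted p = 0.0276 in edgeR). It was at 0, 0 and 9.4 CPM in the diabetic libraries of days 1, 3 and 7 and at 104, 378, 0 and 301 CPM in the control libraries. The groups overlapped, since the control library of day 5 was also at 0. Of the 417 Hspb1 UMIs of gated cells, 409 lay in the 72 cells with neither pattern and 6 in the protease-rich cells. At gates of 5 and 10 UMIs Hspb1 did not enter the test. Without day 5 its log2 fold change stayed at -5.87 and no longer passed (edgeR, adjusted p = 0.122).

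Fos, a gene of the immediate early response, was lower in every diabetic library than in any control library. Its level in mast cells was 718, 724, 661 and 599 CPM in the diabetic wounds of days 1, 3, 5 and 7, and 6835, 2448, 3079 and 2404 CPM in the control wounds. The log2 fold change was -2.34 (SE 0.45), which did not pass over all genes (edgeR, adjusted p = 0.152) and passed in DESeq2 (adjusted p = 1.2e-05). In the 95 protease-rich cells alone, Fos was at 663, 791, 661 and 686 CPM in the diabetic libraries. It was at 7193, 2622, 2150 and 1031 CPM in the control libraries, again without overlap. The diabetic library of day 5 held only 3 of these cells, and how many of all genes separate in them was not counted. At a gate of at least 10 UMIs Fos passed (edgeR, log2 fold change -1.89, SE 0.43, adjusted p = 0.0124). In all ungated cells Fos was at 464, 502, 721 and 744 CPM against 420, 1165, 1261 and 1347 CPM, so that on day 1 it was lower in the diabetic library in mast cells but not in the other cells. The difference between the effects in gated and ungated cells was -1.77 on the log2 scale (SE 0.51), with an adjusted p of 1.0 in edgeR.

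Such separation was not rare in mast cells as called by the rule. Over the 3268 genes, 47 (1.44%) had every diabetic sum below every control sum and 52 (1.59%) the reverse, counted without the diabetic library of day 5. Among 20 transcription factor genes tested, Fos and Junb were below and Runx1 above. Of 9 heat shock genes tested, 1 was below and 0 above. Their median log2 fold change was -0.66 against 0.05 over all genes, with 1 gene above 0 and 0 called. Junb, a partner of Fos, was at 617, 844 and 698 CPM in the diabetic libraries of days 1, 3 and 7 and at 1169, 1068, 956 and 975 CPM in the control libraries. In the protease-rich cells, however, Junb was at 603 to 791 CPM in the diabetic and 763 to 1109 CPM in the control libraries, with overlap. Dusp1, a phosphatase of the same early response, was at 404, 716 and 694 CPM against 1715, 1357, 1341 and 1130 CPM in mast cells as called by the rule, which include cells with neither pattern. Egr1 is given in protease-rich cells, so that it is not compared with Dusp1. It was at 1636 to 4421 CPM in the diabetic and 1932 to 4175 CPM in the control libraries, with overlap.

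Il6 in mast cells stood at 337, 96.5 and 37.8 CPM in the diabetic libraries of days 1, 3 and 7 and at 2988, 1836, 24.8 and 73.6 CPM in the control libraries (log2 fold change -2.95, SE 0.59, edgeR adjusted p = 0.18, not past the threshold). It passed in DESeq2 (-2.95, adjusted p = 0.0039). It also passed at gates of 5 and 10 UMIs (edgeR, adjusted p = 4.6e-09 and 0.0442), at which 0.372% and 0.191% of all genes passed. The fits at these gates had 2 residual degrees of freedom, so that their p-values rest mainly on a spread pooled over genes. Among cells called mast cells, 292 Il6 UMIs lay in the 10 with the Gata2 or Cd200r3 profile, 83 in the 71 with neither pattern and 49 in the 91 protease-rich cells. Those 10 cells came from the control libraries of days 1, 3 and 5 (2, 5 and 1 cells) and the diabetic library of day 1 (2 cells). In the protease-rich cells Il6 was at 229, 161, 0 and 52.8 CPM in the diabetic and 49.3, 0, 31.2 and 130 CPM in the control libraries, without an order by treatment. Ctsj and Prss34, called at a gate of 10 UMIs, each rested on few cells: Ctsj was at 651 CPM in the diabetic library of day 1 and at 0 UMIs in the mast cells of the other 7 libraries, and 61 of the 77 Prss34 UMIs of mast cells lay in 1 cell. Ccl8, a monocyte chemokine, was higher in diabetic mast cells at gates of 5 and 10 UMIs (edgeR, log2 fold change 3.44 and 2.96, adjusted p = 2.5e-05 and 0.0138). Of the 179 Ccl8 UMIs of protease-rich cells, 131 lay in the diabetic library of day 7 and 113 in a single cell. At the gate of 5 UMIs Cd163, a scavenger receptor of macrophages (log2 fold change 4.84), and Selenop, a selenium carrier (2.53), were also higher, and Mmp9, Gzmb and Ctsk were lower. Of 9 macrophage markers tested at either gate, 0 passed. That list did not hold Ccl8, Cd163 and Selenop, which the paper gives among the marker genes of a macrophage cluster.

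**Figure D5:**
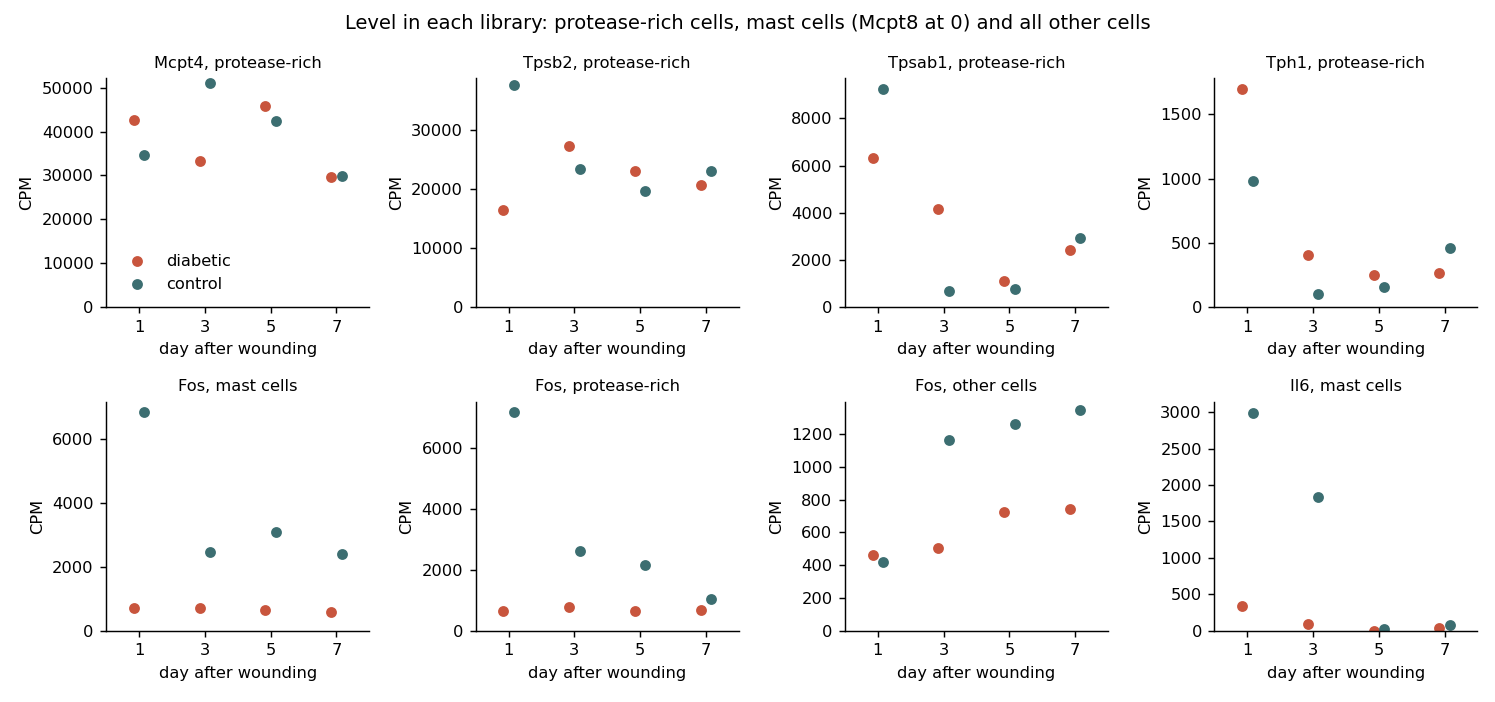
Level in CPM by day after wounding, 1 point per library and no error bars since each treatment and day is 1 library, for genes in the protease-rich cells, in mast cells as called by the rule and in all ungated cells. Fos in mast cells is at 599 to 724 CPM in the diabetic and 2404 to 6835 CPM in the control libraries, while Mcpt4 and Tpsb2 overlap between treatments.

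The granule genes themselves gave no call between diabetic and control wounds. The sums held protease-rich cells in unlike parts on day 7, at 168735 of 1250127 UMIs in the control and 75811 of 211905 UMIs in the diabetic library. Of the 13 granule proteases 6 entered the test, with a median log2 fold change of 0.41 against 0.05 over all genes, and 0 passed in either direction. The 12 genes of granule matrix and amines had a median of 0.59 with 0 called, and 10 of the 14 genes of the IgE receptor and its signalling entered with a median of 0.15 and 0 called. Of 26 cytokines and chemokines 19 entered, with a median of -0.96 and 0 called. The fitted log2 fold changes of all 6 fibroblast markers were below 0, with a median of -2.91 and 0 called. Col1a1, however, was at 0, 0 and 7862 CPM in the diabetic libraries of days 1, 3 and 7 and at 0, 6642, 24.8 and 5206 CPM in the control libraries, and was the higher in the diabetic library on day 7. The 11 monocyte and macrophage markers had a median of 0.68, 0 called. The part of protease-rich cells, fibroblasts and macrophages in the values was not tested.

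Levels in the protease-rich cells are given as a description. Mcpt4 was at 42654, 33390, 45783 and 29732 CPM in the diabetic libraries of days 1, 3, 5 and 7 and at 34636, 51046, 42459 and 29917 CPM in the control libraries. Tpsb2 was at 16533 to 27292 CPM and 19788 to 37764 CPM. The treatments overlapped for both. Tpsab1 varied more, at 6331, 4142, 1116 and 2427 CPM and at 9262, 662, 779 and 2945 CPM. Its highest level was on day 1 in both treatments. Tph1 had the same shape, at 1700, 402, 248 and 264 CPM and at 985, 102, 156 and 456 CPM. Mrgprb1 was at 2876 to 4504 CPM in the diabetic and at 2673 to 2803 CPM in the control libraries. Mrgprb2 was at 343 to 744 CPM and 610 to 701 CPM. How many of all genes separate by treatment in these cells was not counted, and the diabetic library of day 5 held only 3 of them. Kit was at 992 to 1917 CPM and at 1084 to 1511 CPM.

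In the Gata2 or Cd200r3 profile, the 3 libraries with 5 or more cells were compared by their values. Ccl3 was at 23469 CPM in the diabetic library of day 1, 9131 CPM in that of day 5 and 17333 CPM in the control library of day 3. Il6 was at 11270, 6532 and 7133 CPM, Il1b at 11889, 4460 and 3592 CPM and Acod1 at 12508, 9131 and 3677 CPM. Mcpt8, a gate gene, was at 2043, 4249 and 6608 CPM, and Il1rl1 was at 495, 1826 and 491 CPM. With the day as a factor no edgeR fit was possible for basophils, since only these 3 libraries held at least 5 cells called basophils. Without it, edgeR's quasi-likelihood test called 11 of 939 genes (1.17%), 9 higher and 2 lower in diabetic cells, from 3 sums and 1 residual degree of freedom. Treatment, day and library cannot be told apart in that fit, and its genes are not named.

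Mast cells and basophils summed together differ in make-up by treatment, since basophils could enter the control sums of days 5 and 7 only by Cpa3 and Ms4a2. This touches the next comparison and the interaction. In these sums, 0 of 3111 genes (0.0%) passed between diabetic and control wounds in edgeR, 41 had an unadjusted p under 0.05 and DESeq2 called 5. The genes with the smallest p, none past the threshold in edgeR, were Fos (log2 fold change -2.52, SE 0.40), Gpx3 (-3.81, SE 0.59) and Hspb1 (-5.41, SE 0.84), each with an adjusted p of 0.164. Gpx3, an extracellular glutathione peroxidase, had 1414 of its 1429 UMIs in the 72 cells with neither pattern. Whether the treatment acted differently on gated and on all other cells was tested as an interaction. Of 13053 genes 0 (0.0%) passed in edgeR, 396 had an unadjusted p under 0.05, and DESeq2 called 0. The smallest p were those of Ifit2, Npy1r and Plxnb3, each with an adjusted p of 1.0.

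Between days 5 and 7 and days 1 and 3, 1 of 2377 genes (0.0421%) passed in mast cells in edgeR, again without the diabetic library of day 5, 256 had an unadjusted p under 0.05, and DESeq2 called 92. It was Retnlg, a neutrophil gene, at a log2 fold change of -3.70 (SE 0.47, adjusted p = 0.0368). It no longer passed without the control library of day 7 (-3.67, adjusted p = 0.432), nor without day 1, 3 or 7 (edgeR, adjusted p = 0.418, 0.105 and 0.285), with folds of -3.62 to -4.06. Retnlg was at 415, 273 and 28.3 CPM in the diabetic libraries of days 1, 3 and 7 and at 208, 223, 12.4 and 17.6 CPM in the control libraries. It fell in the same direction in ungated cells, from 3485 and 2462 CPM on day 1 to 87.6 and 58.9 CPM on day 7. Fcer1a had a log2 fold change of -2.06 (SE 0.41) and did not pass (edgeR, adjusted p = 0.153) but passed in DESeq2 (-2.02, adjusted p = 4.95e-06), as did Tpsab1 (-2.70), Cd200r3 (-2.25) and Gata2 (-2.09), all lower late. The Fcer1a fold was -0.77 at a gate of 10 UMIs. At a gate of 5 UMIs, 0.0522% of genes passed, which was Il6 alone (edgeR, log2 fold change -4.10, adjusted p = 0.0425), and Retnlg did not (adjusted p = 0.12). Of the 11 mast cell markers, 11 were lower late, with a median of -0.94 against -0.01 over all genes and 0 called, and the 10 macrophage markers that entered were all higher, with a median of 2.50 and 0 called. The 8 basophil markers that entered were all lower late (median -2.09, 0 called) and the 6 fibroblast markers all higher (median 3.45, 0 called). At the gate of 10 UMIs, 21 genes (1.13% of those tested) passed, 18 higher and 3 lower late. Of the 9 macrophage markers tested there, 6 passed and were higher, among them C1qc (log2 fold change 3.52), Mrc1 (3.07), Apoe (1.63) and Lyz2 (2.06), and Ccl8, with a log2 fold change of 5.11, had the smallest p. In ungated cells Ccl8 was also higher late, at 49.3 and 31.1 CPM on day 1 and 597 and 870 CPM on day 7 in control and diabetic wounds.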

How the data were processed

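CD45+ cells of wounds digested at 37 °C for 1 h were profiled in 8 libraries, 1 per treatment and day. The authors trimmed reads with fastp (0.20.1 in the submitters' processing notes), identified barcodes by UMI-tools and aligned with STAR against an Ensembl annotation. The processing notes name mm9 as build, so coordinates here, from GRCm38, rest on gene names. The series record names another single-cell platform than the methods. The deposited values are UMI counts of each gene in each barcode, without normalization. The tables held 4059 to 5836 barcodes each, and how these had been selected was not tested. Library totals were 19236522 to 33842509 UMIs, and the precision of shares is given by exact 95% binomial intervals.

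Cells with more than 200 genes and less than 20% of UMIs from mitochondrial genes entered. Doublets were scored with Scrublet through scanpy 1.11.5 and kept, since only 68 of 35158 cells were marked. Barcodes are renumbered in each table, so that barcodes shared between libraries could not be counted. UMIs were summed per library and class, with at least 5 cells per sum, and tested with edgeR 4.0.16 (filterByExpr, TMM, quasi-likelihood F test, Benjamini-Hochberg adjustment over all genes), leaving out the gate genes. The day was a factor (the replicate block) in treatment fits. DESeq2 1.42.0 was an alternative. Shares of mast cells were tested by exact permutation within day or treatment. As each treatment and day is 1 library of pooled mice, permutation p-values rest on the spread between days. The edgeR fits of mast cells by treatment had 2 residual degrees of freedom. Their p-values rest mainly on a spread pooled over genes, and little on a gene's own spread between days. On simulated counts with a log2 change of 2, the tests recovered 0% (mast cells, treatment), 23.7% (gated cells, treatment), 38.8% (mast cells, late against early) and 0% (interaction) of the 187, 173, 183 and 194 changed genes tested.

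The members, lists and tests were chosen with earlier results of these data known. Named genes were examples of the lists with the most UMIs, those past a threshold, otherwise the 3 with the smallest p, and up to 15 in each direction between mast cells and basophils. The 4 profiles were chosen after values were seen, as were the further examples Junb, Dusp1, Egr1, Ctsj, Prss34, Slc6a4, Acod1, Ccl8, Cd163, Selenop and Col1a1. Alternatives were other gates, thresholds, scalings and filters, DESeq2, each day left out and, chosen after seeing the data, a gate of 10 UMIs and leaving out the control library of day 7.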

Additional observations from a re-analysis of the deposited data

How the results depend on the processing

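Directions of shares turned with the gate and with single libraries. Thinned to 1000 UMIs per cell, gated cells differed by 0.0109 percentage points, diabetic minus control. Late minus early, gated cells differed by -0.0270 and -0.0271 points at gates of 5 and 10 UMIs, -0.0448 thinned, -0.0459 without the control library of day 7, and -0.121 to 0.594 with each day left out. Mast cells differed by -0.0273 thinned, -0.0156 without the control library of day 7 and -0.0876 to 0.658 with each day left out. Basophils, diabetic minus control, differed by -0.00476 with at least 3 Mcpt8 UMIs, -0.0185 with Mcpt8 over 0.5 of the gate UMIs, and -0.0310 to 0.0801 with each day left out. The values for basophils are void as comparisons, since Mcpt8 is not listed for the control libraries of days 5 and 7. With libraries exchanged over all 8, gated and mast cell shares gave exact permutation p of 0.571 to 0.743.

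The counts of genes at least 2-fold higher in mast cells became 371 with at least 3 Mcpt8 UMIs and 254 and 238 at gates of 5 and 10 UMIs. In basophils they became 510 with at least 3 Mcpt8 UMIs and 239 and 212 at the gates. Each of these settings changed the threshold and also left only the control library of day 3, so that these changes cannot be told apart. At gates of 5 and 10 UMIs, gated cells held 39.8% and 38.5% of Il4, 17.6% and 16.8% of Il13, 11.4% and 9.76% of Il6 and 3.22% and 3.12% of Hdc UMIs.

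For mast cells by treatment, edgeR called 3 genes with relative log expression factors, 7 unfiltered, 10 and 5 at gates of 5 and 10 UMIs, 5 without Scrublet doublets, 46 without the control library of day 7, 0 to 34 with each day left out, and 0 with no replicate block, while DESeq2 called 5. Without day 5 Hspb1 kept a log2 fold change of -5.87 and did not pass (adjusted p = 0.122). For gated cells, DESeq2 called 5 and edgeR 8 unfiltered, 2 with at least 10 cells per sum and 4 without the control library of day 7. Late against early, DESeq2 called 92 and edgeR 150 unfiltered, 21 at a gate of 10 UMIs, 0 without the control library of day 7 (Retnlg log2 fold change -3.67, adjusted p = 0.432) and 0 to 25 with each day left out. The interaction gave 1 without the control library of day 7 and 0 to 2 with each day left out. The cause of these shifts was not tested.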
